A study of Mus musculus with 6 samples.

Results

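The genes described here make cholesterol, sense its level in the cell and move it between the outside, the lysosome and the membranes. They are 31 genes given by name: 18 of synthesis, 5 of control by sterol regulatory element-binding proteins (SREBPs), 5 of uptake, transport and storage, and 3 of efflux. Each was read at the probe set (a group of array probes summarised to 1 value) whose annotation names that gene alone, and at the brightest such probe set where a gene had several. Of the 31 genes, 28 had such a probe set, out of 19937 genes measured in this way. Acat2, Soat1 and Nr1h2 were not analysed here for RNA levels and enter the promoter counts only.

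The cells were the mouse B-cell line 230-238, a single line. They had been infected with a plasmid for green fluorescent protein (GFP) alone, or for GFP and FOG1, the zinc finger cofactor of GATA transcription factors encoded by Zfpm1. Both groups were cultured for 3 days, sorted for GFP and cultured for 4 more days, and each had 3 arrays, called biological replicates in the labels. The labels give no promoter for the plasmids and do not say whether the replicates were separate infections, so the p-values measure the spread between these arrays. The comparison asks whether added FOG1 goes with different RNA levels of these genes.

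Cells make cholesterol from acetyl-CoA through mevalonate, farnesyl diphosphate, squalene and lanosterol. When membrane sterol is low, SCAP escorts SREBPs from the endoplasmic reticulum to the Golgi, where they are cut and released to switch on the synthesis genes, and INSIG proteins hold SCAP back when sterol is plentiful. Oxysterols act the other way, through LXR receptors that raise the export pumps ABCA1 and ABCG1 and the ligase MYLIP, which degrades the low-density lipoprotein receptor. Dividing blood cells draw on this pathway for new membrane.

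The upstream bases of 6 members are shown because these genes share the pathway but lay on different sides of the comparison. Cyp51 was higher on every FOG1 array, and so was Idi1 at its brighter probe set but not at its other. Mvd, Ebp and Npc2 were lower on every FOG1 array, and Hmgcs1 did not separate. Each run is the 250 bases before the RefSeq start on GRCm38.p6, 5′ to 3′ on the gene's strand, at chr13:119690101-119690350 (plus strand) for Hmgcs1, chr13:8885356-8885605 (plus) for Idi1, chr5:4104698-4104947 (minus) for Cyp51, chr8:122443423-122443672 (minus) for Mvd, chrX:8193513-8193762 (minus) for Ebp and chr12:84773113-84773362 (minus) for Npc2. Capitals mark matches, on either strand, to a sterol response core (TCACNCCAC), the NF-Y box (CCAAT), the Sp1 box (GGGCGG) and the E-box (CACGTG). No marked match overlapped another.
Hmgcs1: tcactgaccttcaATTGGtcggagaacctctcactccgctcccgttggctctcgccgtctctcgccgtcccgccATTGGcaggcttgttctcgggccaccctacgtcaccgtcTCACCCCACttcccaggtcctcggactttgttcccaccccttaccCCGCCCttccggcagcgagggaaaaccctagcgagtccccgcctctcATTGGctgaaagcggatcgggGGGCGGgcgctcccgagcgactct
Idi1: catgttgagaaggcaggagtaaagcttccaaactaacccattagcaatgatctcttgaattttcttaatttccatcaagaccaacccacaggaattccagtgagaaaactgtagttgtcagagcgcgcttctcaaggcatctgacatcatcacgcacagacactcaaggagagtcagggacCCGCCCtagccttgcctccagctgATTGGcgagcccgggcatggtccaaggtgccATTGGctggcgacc
Cyp51: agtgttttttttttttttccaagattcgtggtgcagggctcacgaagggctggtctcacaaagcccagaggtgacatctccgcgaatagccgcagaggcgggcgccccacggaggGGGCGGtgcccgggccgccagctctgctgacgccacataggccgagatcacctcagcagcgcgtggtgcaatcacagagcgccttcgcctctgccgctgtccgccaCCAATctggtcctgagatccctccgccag
Mvd: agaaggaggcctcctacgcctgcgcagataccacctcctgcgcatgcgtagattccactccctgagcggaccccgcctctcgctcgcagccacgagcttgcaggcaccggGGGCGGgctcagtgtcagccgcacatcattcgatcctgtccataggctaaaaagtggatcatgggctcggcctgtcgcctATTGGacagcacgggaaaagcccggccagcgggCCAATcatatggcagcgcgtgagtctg
Ebp: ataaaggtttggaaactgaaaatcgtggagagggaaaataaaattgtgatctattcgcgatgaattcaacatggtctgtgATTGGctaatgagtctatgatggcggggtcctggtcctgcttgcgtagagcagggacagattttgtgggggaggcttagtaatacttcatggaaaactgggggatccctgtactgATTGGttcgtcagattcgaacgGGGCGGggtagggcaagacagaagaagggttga
Npc2: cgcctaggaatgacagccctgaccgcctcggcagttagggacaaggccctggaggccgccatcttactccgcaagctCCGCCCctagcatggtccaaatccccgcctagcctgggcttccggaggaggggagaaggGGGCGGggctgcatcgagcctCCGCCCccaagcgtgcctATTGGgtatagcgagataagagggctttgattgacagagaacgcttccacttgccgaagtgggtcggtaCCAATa

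A match to the sterol response core as written above stood in the Hmgcs1 run alone, as TCACCCCAC from 137 to 129 bases before the start. Other forms of the element were not searched for, so the other runs may hold one. All 6 runs held an NF-Y box and an Sp1 box, whether the gene was higher or lower with FOG1, and none held an E-box. The promoter table had 33 starts of 25 members, read as windows of 300 bases (250 before and 50 after the start). It had none for Stard4, Npc1, Sqle, Fdft1, Fdps and Abcg1. NF-Y boxes were in 22 of the 33 windows (66.7%), against 37.4% of all 32851 windows in the table. Sp1 boxes were in 27 (81.8%, against 35.7%), E-boxes in 7 (21.2%, against 7.15%) and the sterol response core in 1 (3.03%, against 1.24%). These are matches of letters, and whether a factor binds there was not measured.

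The library labels were checked on Zfpm1 itself, which rose by 66.8% in signal (log2 change 0.74, SE 0.045; limma, adjusted p = 0.0038). With the replicate number as a block its change was the same and its limma adjusted p was 0.097. Of 11 measured B-lineage markers, 10 reached the median of all values, 7.00, including Pax5, Ebf1 and Igll1. None of the 11 passed the adjusted threshold, and 4 had an unadjusted p under 0.05. These were the B-cell receptor signalling chain genes Cd79a (-0.41; limma, adjusted p = 0.088) and Cd79b (-0.16), the recombinase gene Rag2 (0.23) and the cytokine receptor gene Il7r (0.20). The change of Cd79a was larger in size than that of any member. The mean of the list was 10.85 to 10.92 on the GFP arrays and 10.85 to 10.90 on the FOG1 arrays. Of 10 myeloid, 6 erythroid and megakaryocyte and 7 T and NK cell markers, 2, 2 and 1 reached it. The mean signal of the myeloid list was 6.49 to 6.53 log2 units on the GFP arrays and 6.31 to 6.36 on the FOG1 arrays. The integrin chain gene Itgam was its 1 member past the threshold. Itgam changed by -1.11 and the other myeloid markers by -0.20 (Cd14) to -0.02 (Adgre1). Itgam therefore had the largest part in the difference of the list means. For stromal markers, of which 5 of 6 reached the median, the mean was 8.34 to 8.50 on the GFP arrays and 8.09 to 8.65 on the FOG1 arrays. The part of any of these lists in the results was not tested, and in bulk RNA fewer cells of a type and less RNA per cell cannot be told apart. On the first principal component FOG1 replicate 1 lay at 1.15, between the GFP arrays (-16.1 to -11.4) and FOG1 replicates 2 and 3 (17.0 and 24.3).

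None of the 28 members passed an adjusted p of 0.05 over all 34760 probe sets (limma with Benjamini-Hochberg), where 0.224% of all probe sets were called. The largest difference was that of the sterol carrier gene Stard4, with a signal 29.2% higher in FOG1 cells. Next came the mevalonate pathway genes Mvd (15.6% lower) and Idi1 (15.2% higher at its brighter probe set) and the lysosomal cholesterol gene Npc2 (12.5% lower). The log2 change from GFP alone to FOG1 was positive for 11 members and negative for 17, with a median of -0.02, against -0.01 over all 19937 genes. Of the 10582 genes at or above the median signal, as most members were, 5954 were positive, with a median of 0.01. The median size of the change, without its sign, was 0.07 for the members and 0.06 for all genes.

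Before adjustment, 8 members had a p under 0.05, 3 of them higher and 5 lower with FOG1. That is 28.6% of the members, against 11.0% of all genes and 13.3% of the genes at or above the median signal, where 27 of the 28 members lay. The 3 higher members were Idi1, Cyp51 and Stard4, and the 5 lower were Mvd, Sqle, Ebp, Npc1 and Npc2. Without FOG1 replicate 2 the count was 4 (Mvd, Idi1, Npc2 and Stard4). In 3 members (10.7%) all FOG1 arrays lay above all GFP arrays, against 10.2% of all genes and 16.4% of the genes at or above the median signal. In 6 members (21.4%) all FOG1 arrays lay below, against 10.5% and 9.21%. The sixth was the mevalonate kinase gene Mvk, with a change of -0.06.

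**Figure D1:**
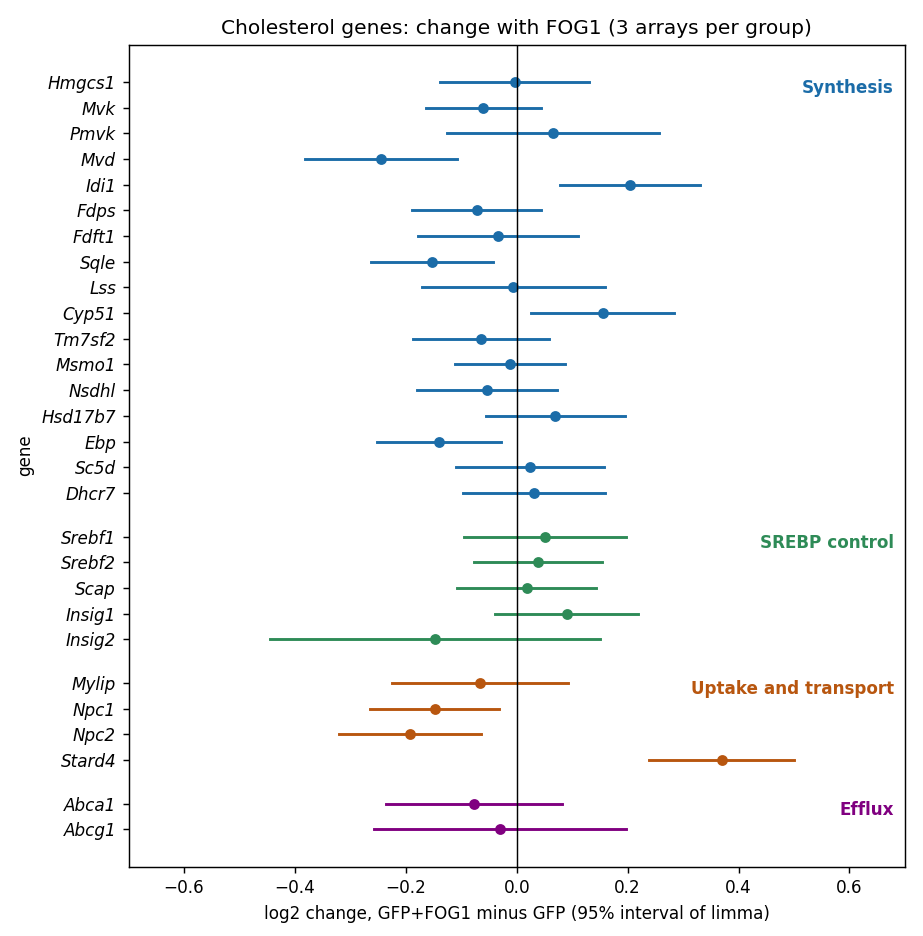
Log2 change from GFP alone to GFP and FOG1 for the 28 members, by role. Points are limma estimates and lines their 95% intervals (3 arrays per group). Stard4 at 0.37 and Mvd at -0.24 lie farthest from 0, and most intervals of the other genes cross it.

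Of the 17 measured synthesis genes, 6 had a positive and 11 a negative change, with a median of -0.01. Their median deviation from the GFP means was 0.04, 0.03 and -0.04 log2 units on the GFP arrays and 0.02, -0.04 and -0.03 on the FOG1 arrays (replicates 1 to 3), so the groups overlapped for the list as a whole. Positive and negative estimates stood next to each other along the pathway, and no synthesis gene passed the adjusted threshold.

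Mvd encodes the decarboxylase that makes isopentenyl diphosphate, the first isoprene unit. Its log2 signal was 8.73, 8.76 and 8.73 on the GFP arrays and 8.60, 8.43 and 8.46 on the FOG1 arrays. All 3 FOG1 arrays were lower, and FOG1 replicate 1 was nearest to the GFP arrays. The mean went from 8.74 ± 0.02 to 8.49 ± 0.09 (SD, n = 3 each), a change of -0.24 (SE 0.057; limma, adjusted p = 0.22).

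Idi1, the isomerase that acts on the product of Mvd, differed in the opposite direction. Its signal was 9.87, 9.85 and 9.90 on the GFP arrays and 9.99, 10.11 and 10.13 on the FOG1 arrays. The groups did not overlap, and the change was 0.20 (SE 0.053; limma, adjusted p = 0.24). A second probe set for Idi1 did not separate them, at 9.81, 10.08 and 9.92 on the GFP arrays and 10.08, 9.99 and 9.93 on the FOG1 arrays, with a change of 0.06 (95% interval -0.14 to 0.25). With both probe sets averaged the change was 0.13, so the size for Idi1 depends on the probe set. Which of them reads the Idi1 locus itself was not looked up.

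Sqle encodes squalene epoxidase, which commits squalene to sterols. Its signal was 9.93, 9.96 and 9.88 without and 9.81, 9.74 and 9.76 with FOG1. All FOG1 arrays were lower, by 10.1% on average (log2 change -0.15, SE 0.046; limma, adjusted p = 0.30).

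The demethylase gene Cyp51, which acts on lanosterol, stood at 8.83, 8.85 and 8.73 in GFP cells and at 8.91, 8.97 and 8.99 in FOG1 cells. All FOG1 arrays were higher, by 11.3% on average (log2 change 0.15, SE 0.054; limma, adjusted p = 0.34). For Ebp, an isomerase late in the pathway, the values were 9.26, 9.17 and 9.19 in GFP cells against 9.05, 9.04 and 9.10 in FOG1 cells. All FOG1 arrays were lower, by 9.28% on average (log2 change -0.14, SE 0.047; limma, adjusted p = 0.33).

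The enzyme Fdps makes farnesyl diphosphate, from which both sterols and protein prenyl groups derive. Its arrays read 10.51, 10.47 and 10.44 without and 10.40, 10.36 and 10.46 with FOG1. The groups overlapped, through GFP replicate 3 and FOG1 replicate 3, and the change was -0.07 (95% interval -0.19 to 0.04).

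**Figure D2:**
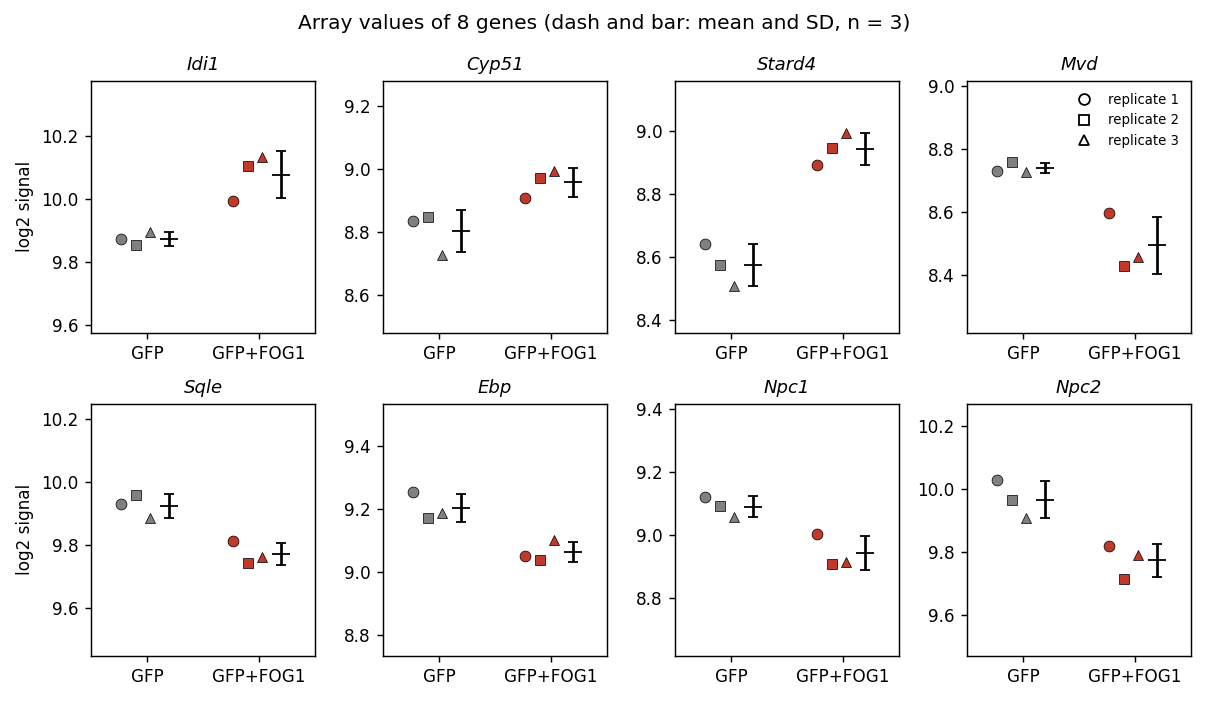
Log2 signal on each array for the 8 members with an unadjusted p under 0.05. Symbols give the replicate number, and the dash and bar give mean and SD (n = 3); the axes differ in position and share a span. In each panel the GFP and GFP+FOG1 arrays do not overlap.

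The other synthesis genes lay closer to no difference. Hmgcs1, the synthase that feeds the mevalonate pathway, gave 9.38 ± 0.08 and 9.37 ± 0.04, and the 95% interval of its change was -0.14 to 0.13. Lss, which closes the epoxide of squalene into lanosterol, had a change of -0.01 (interval -0.17 to 0.16). Msmo1, an oxygenase that removes methyl groups, also had a change of -0.01 (interval -0.11 to 0.09). The squalene synthase gene Fdft1 had -0.03 at its brighter and 0.01 at its other probe set. Pmvk, the kinase between Mvk and Mvd, had 0.07. Among later enzymes the changes were -0.07 for the reductase Tm7sf2, -0.05 for the dehydrogenase Nsdhl, 0.07 for the reductase Hsd17b7, 0.02 for the desaturase Sc5d and 0.03 for Dhcr7, which makes cholesterol in the last step of one branch. For all 17 synthesis genes the 95% interval lay within 0.5 log2 units of 0, a 1.41-fold difference. The same held for 19206 of all 19937 genes.

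The 5 SREBP control genes were all at overlapping levels, and none had an unadjusted p under 0.05. Srebf2, the SREBP gene best known for synthesis and uptake of cholesterol, gave 11.24 ± 0.05 and 11.28 ± 0.03 (change 0.04, interval -0.08 to 0.15). Srebf1, whose main product drives fatty acid synthesis, gave 9.24, 9.34 and 9.15 without and 9.31, 9.26 and 9.33 with FOG1 (change 0.05, interval -0.10 to 0.20). The escort gene Scap had a change of 0.02 (interval -0.11 to 0.14).

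The retention factor gene Insig1 read 11.24, 11.17 and 11.12 in GFP cells and 11.32, 11.21 and 11.27 in FOG1 cells. FOG1 replicate 2 lay below GFP replicate 1, and the change was 0.09 (interval -0.04 to 0.22). Its relative Insig2 read 8.74, 8.83 and 8.79 in GFP cells and 8.86, 8.69 and 8.36 in FOG1 cells. The FOG1 arrays spread to both sides of the GFP arrays (SD 0.25 against 0.04). The change of -0.15 (interval -0.44 to 0.15) was -0.01 without FOG1 replicate 3, which was also the lowest FOG1 array for the stromal markers Col1a1 (8.99, against 9.90 and 9.61 on FOG1 replicates 1 and 2) and Pdgfrb (7.59, against 8.97 and 8.59). Of the other stromal markers, Col1a2 and Col3a1 were also lowest on that array among the FOG1 arrays, and Dcn and Pecam1 were highest on it. The part of these markers in the Insig2 value was not tested.

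Among the uptake and transport genes, Stard4 stood opposite to the lysosomal genes. Stard4 encodes a soluble protein that carries cholesterol between membranes. Its signal was 8.64, 8.58 and 8.51 on the GFP arrays and 8.89, 8.95 and 8.99 on the FOG1 arrays. The gap between the lowest FOG1 and the highest GFP array was wider than the spread within either group. The mean went from 8.57 ± 0.07 to 8.94 ± 0.05, a change of 0.37 (SE 0.054, 95% interval 0.24 to 0.50; limma, adjusted p = 0.091). It passed where fewer probe sets were tested, with adjusted p = 0.043 without dim probe sets and 0.038 with only probe sets of 1 gene symbol, and it lay between 0.056 and 0.31 in the other settings tried.

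Npc2 and Npc1 work in sequence in the lysosome, where NPC2 hands cholesterol freed from lipoproteins to the membrane protein NPC1. Npc2 was at 10.03, 9.96 and 9.91 in GFP cells and at 9.82, 9.72 and 9.79 in FOG1 cells. The groups did not overlap, and the change was -0.19 (SE 0.053; limma, adjusted p = 0.27). Npc1 was at 9.12, 9.09 and 9.06 in GFP cells and at 9.00, 8.91 and 8.92 in FOG1 cells. Again all FOG1 arrays were lower, with a change of -0.15 (SE 0.049; limma, adjusted p = 0.32). Mylip overlapped between the groups, with a change of -0.07 (interval -0.23 to 0.09). The median of the 4 measured genes of this role was -0.11, with Stard4 the one positive value.

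The export pumps were measured by Abca1 and Abcg1. Abca1 was at 6.22, 6.27 and 6.33 in GFP cells and at 6.31, 6.13 and 6.14 in FOG1 cells. It was the 1 member below the median signal, so part of its signal can be background and a difference could be understated. Abcg1 was at 9.59, 9.48 and 9.25 in GFP cells and at 9.37, 9.36 and 9.50 in FOG1 cells, with more spread within the GFP group than between the group means. The changes were -0.08 (interval -0.24 to 0.08) and -0.03 (interval -0.26 to 0.20), and the groups overlapped for both.

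Of the 9 members whose groups did not overlap, FOG1 replicate 1 was the FOG1 array nearest to the GFP mean in 7, and so it was in 52.7% of the 4137 genes of the whole array whose groups did not overlap. Replicate 2 was nearest for Mvk and replicate 3 for Ebp. Replicate 1 also lay nearest to the GFP arrays on the first principal component of all probe sets.

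A wider list of 59 genes around the pathway, of which 50 were measured, also had no gene past the threshold. Before adjustment 6 of the 50 (12%) had a p under 0.05, 3 in each direction, against 11.0% of all genes and 13.3% of those at or above the median signal. The groups did not overlap in 11 of the 50 (22%), against 20.8% of all genes and 25.6% of those at or above the median signal. At the brightest probe set of each gene, the largest positive change was in the fatty acid list, in Elovl6, which lengthens saturated fatty acids. Its signal was 11.28, 11.33 and 11.25 without and 11.45, 11.56 and 11.59 with FOG1 (change 0.25, SE 0.055, limma adjusted p = 0.21). All its FOG1 arrays were higher. Pnpla3, a lipid droplet protein, had the opposite sign in that list at -0.14. The 13 fatty acid genes had a median of 0.03, and 10 of them were positive. Of the 10582 genes at or above the median signal, 5954 were positive. Me1 was among the positive ones with 0.07 at its brighter probe set, but had -0.155 at its other. Acaca had 0.03 and 0.05.

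Of 7 other synthesis genes, Dhdds, a subunit of the enzyme that makes dolichol precursors, had a change of 0.14. Ggps1, which makes geranylgeranyl diphosphate, had a change of 0.09. The groups did not overlap in these 2 genes (28.6%), against 20.8% of all genes and 25.6% of those at or above the median signal. The list median was 0.03. Of 6 measured genes of SREBP cleavage and reductase degradation none had an unadjusted p under 0.05. The Golgi protease gene Mbtps1, which makes the first cut in SREBPs, had 0.08 and the ubiquitin ligase gene Rnf145 had -0.11.

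The 6 measured genes of lipoprotein uptake and lysosomal release had a median of -0.09, with 5 negative. Lrp8, a receptor of the low-density lipoprotein receptor family, had -0.13 and was lower on every FOG1 array. Tmem97, a protein that binds NPC1, was the positive one, at 0.16 at its brighter probe set and 0.26 at the other (limma, adjusted p = 0.41 and 0.15). Lrp1 had the most negative value, -0.30, with an interval from -0.81 to 0.22. Its arrays read 9.26, 8.93 and 8.40 with FOG1, the lowest being replicate 3, as for Insig2.

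The 8 sterol transfer genes had a median of -0.02 and none had an unadjusted p under 0.05. Osbpl11 and Osbpl9, of the oxysterol-binding protein family, were at 0.08 and 0.05. In the list of LXR partners, oxysterol enzymes and efflux genes, 8 of 10 were negative, with a median of -0.01. Nceh1, a hydrolase of cholesterol esters, was lower on every FOG1 array (-0.17). Nr1h3, the gene of LXR alpha, was higher on every FOG1 array (0.18) at a signal below the median.

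**Figure D3:**
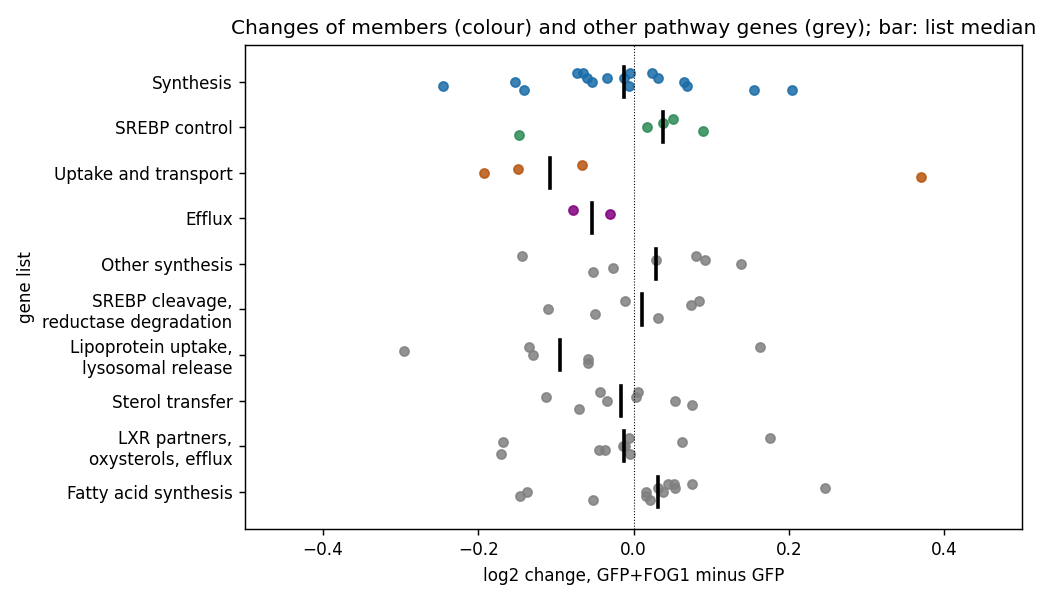
Log2 change for each measured gene of the 4 member roles (colour) and of 6 further pathway lists (grey); black bars are list medians. All list medians lie between -0.11 and 0.04, and no gene passed the adjusted threshold.

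The 95% intervals describe differences in array signal, given the spread between these arrays. They do not cover a shift that the processing of the arrays could have hidden. For 27 of the 28 members the 95% interval of the change lay within 0.5 log2 units of 0, and the exception was Stard4, whose upper bound was 0.50. The same bound held for 19206 of all 19937 genes, so the count is not particular to the members. The intervals are per gene and not adjusted for the number of genes. An adjusted p above the threshold does not show that a gene was at the same level in both groups.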

How the data were processed

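RNA of 6 samples, 3 in each group, was measured on Affymetrix mouse gene arrays. Groups and replicate numbers came from the sample titles. The deposited values are log2 signals for 34760 probe sets, from 3.12 to 14.07, with array medians of 6.98 to 7.04. The log2 scale was read from these values. For software, the submitters' processing notes list affy without a version, and how background and arrays were corrected is not given in the sources used here. If arrays were forced to one distribution, a shift shared by most genes would be hidden.

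Genes were named through the platform annotation, which gave 1 symbol for 21640 probe sets, several for 1321 and none here for 11799, and symbols were checked by Entrez identifier against RefSeq genes. Groups were compared with limma 3.58.1 (lmFit and eBayes, no filter, no block) in R 4.3.3, adjusted by Benjamini-Hochberg over all probe sets. SE and 95% intervals are moderated, and the fit was tested on simulated data. Promoters came from RefSeq (GRCm38.p6). Figures used matplotlib 3.10.9.

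The members, the lists and the naming rule were chosen with earlier results of these data known. The rule gave array values for the members with the smallest unadjusted p in each role (6, 3, 3 and 2 genes) and up to 2 genes of each further list, beside Zfpm1. Values of Lrp1, the second probe sets and the stromal markers were added after their values were seen, and so was the choice of promoters printed. Deviations from the group means of arrays with the same number correlated at -0.07, 0.01 and -0.04, so no pairing was assumed. The alternatives were quantile normalization, median centring, leaving out dim probe sets, testing 1-symbol probe sets alone, a replicate block, a variance trend, array weights, leaving out each array, and averaging a gene's probe sets.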

Additional observations from a re-analysis of the deposited data

How the results depend on the processing

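The number of members past the threshold was 0 in the main comparison and in all but 3 of the other settings. It was 1, Stard4, without dim probe sets and with only 1-symbol probe sets tested, where fewer tests were adjusted for, and 1 at an adjusted p under 0.1. Over all probe sets 78 passed, 20 at an adjusted p under 0.01, 9 with the replicate block and 17 to 38 without 1 array. With the replicate block Zfpm1 kept 0.74 at an adjusted p of 0.097, Stard4 kept 0.37 at an adjusted p of 0.31, and 6 members had an unadjusted p under 0.05. Leaving out 1 array gave 4 to 8 such members (settings added after seeing the data). The 4 role medians moved by less than the larger of the groups' SDs between arrays in the settings tried. Without GFP replicate 3 the synthesis median went from -0.0122 to -0.0489 and the SREBP control median from 0.0377 to 0.0037, which is more than their SDs over the FOG1 arrays (0.0298 and 0.0304). With median centring the synthesis median was 0.0133. Median centring raised the median change of all probe sets by 0.03. A sign turned for 8 of 41 genes checked, each with a main change of at most 0.03 in size. With quantile normalization Sc5d was at -0.0007 and Scap at -0.0019. With median centring Hmgcs1 was at 0.0215, Lss at 0.0196 and Msmo1 at 0.0133, and with array weights Hmgcs1 was at 0.0035. Without 1 array the ranges were -0.0489 to 0.0225 for Hmgcs1, -0.0702 to 0.0163 for Fdft1, -0.0715 to 0.0329 for Lss, -0.0102 to 0.0549 for Sc5d, -0.0005 to 0.0568 for Dhcr7, -0.0233 to 0.0406 for Scap and -0.124 to 0.0444 for Abcg1. The cause of the other moves was not tested. A filter was not run for Abca1 and Nr1h3, which lie below its limit, and a pseudocount was not needed on the log2 scale. The number of arrays limits precision.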

Other observations

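Of the genes of these lists, Insig2, Lrp1, Acss2 and Cyb5r3 had the widest spread among the FOG1 arrays and shared one order of arrays. Ch25h, with the next widest spread, had the opposite order (4.76, 4.86 and 5.15), at a signal below the median. Insig2, which retains SREBPs with SCAP, read 8.86, 8.69 and 8.36 on FOG1 replicates 1 to 3. The endocytic receptor gene Lrp1 read 9.26, 8.93 and 8.40, the acetate-activating enzyme gene Acss2 7.82, 7.50 and 7.32, and the reductase gene Cyb5r3 11.49, 11.26 and 11.04. The stromal markers Col1a1 (9.90, 9.61 and 8.99), Col1a2 (9.55, 9.21 and 8.71) and Pdgfrb (8.97, 8.59 and 7.59) lay in the same order as Insig2. So did Col3a1 (8.14, 8.08 and 7.67). The other stromal markers were highest on FOG1 replicate 3, with Dcn at 5.84, 5.79 and 5.92 and Pecam1 at 9.515, 9.537 and 9.644. These genes were picked after their values were seen, the order of replicates carries no meaning of its own, and a source of the spread was not tested.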
